A study of Rattus norvegicus with 30 samples.

Results

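The genes followed here encode the fibrous sheath and outer dense fibres of the sperm tail, the kinases made in spermatids and the protein of the mitochondrial capsule. They are Odf1, Odf2, Akap3, Akap4, Tssk1b, Tssk2, Tssk3, Tssk4, Tssk6 and Smcp. These 10 genes were set by a list of names, with no threshold on a value, and all 10 were found among the 17322 genes of the deposited file through their Entrez Gene identifiers. Poly(A) RNA was sequenced from testes of Wistar Han rats on 6 days postpartum (dpp): 8.5, 14.5 and 24.5, then 30.5 and 36.5, and last 53.5. Explants cut from testes of 8.5 dpp were sequenced after 6 (D6), 16 (D16), 22 (D22) and 28 (D28) days of culture. The culture medium was αMEM with Knock-out serum replacement, retinol and vitamin E, on agarose at the interface of gas and liquid, and it was the same for all cultured groups. Testes in vivo received no treatment. Each group had 3 libraries, except 14.5 dpp with 2. The study left out the third library of that age because its profile was unlike that of the other 2, and the deposited values list it at 0 for every gene. A cultured library pooled explants of several males, from which the necrotic centre had been removed, whereas in vivo libraries came from different testes. Values are FPKM, which are read counts scaled by the length of the gene's transcripts and the size of the library, so the levels of different genes can be compared per length. A value listed at 0 may be a failed estimate and is no evidence of absence, since Hsp90aa1, used by every cell, is at 0 in all libraries and Spa17 ranges from 0 to 413 FPKM among testes of 30.5 dpp.

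The tail of the sperm is built while spermatids elongate. Around the microtubules of the axoneme lie the outer dense fibres, stiff cables, and in the principal piece these are wrapped by the fibrous sheath, a scaffold of ribs and columns that anchors protein kinase A and enzymes of glycolysis. In the midpiece the mitochondria form a helix whose outer membranes are crosslinked in a capsule. The testis-specific serine/threonine kinases (TSSK) act in spermatids, and mice that lack them form sperm with defects of shape or motility. Spermatids first appear in the rat after the pachytene spermatocytes of the first wave of spermatogenesis have divided, so testes of the ages sampled here run from before meiosis to full spermatogenesis.

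At 53.5 dpp, the oldest age sampled, Odf1 was the most abundant of the 10 genes, with 5128, 5152 and 5262 FPKM. Smcp, which encodes a cysteine-rich protein of the mitochondrial capsule, followed with 4557, 4425 and 4823 FPKM, below Odf1 in every library. Together they made up more of the summed FPKM of the 10 genes than the other members did. Odf1 held 36.7% (range 36.5 to 37.0) of that sum and Smcp 32.6% (31.3 to 33.9). The anchoring proteins of the fibrous sheath came next, Akap4 at 1029 ± 130 FPKM and Akap3 at 798 ± 90.3, followed by Odf2 at 747 ± 54.1 (SD, n = 3). The libraries of Akap4 and Akap3 overlapped, as did those of Akap3 and Odf2. Among the kinases, Tssk2 stood at 543 ± 44.5 FPKM and Tssk6 at 515 ± 25.4, which overlapped. Lower levels were measured for Tssk1b (360 ± 44.3), Tssk3 (298 ± 20.1) and Tssk4 (51.2 ± 11.5; SD, n = 3), and the libraries of Tssk1b and Tssk3 overlapped. Tssk4 lay below every other member in every 53.5 dpp library. The 10 genes together accounted for between 3.72% and 3.83% of the summed FPKM of a 53.5 dpp library, against 0.00405% to 0.00569% at 8.5 dpp.

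Promoter sequences from RefSeq (rat build GRCr8, not the rn6 build of the files) were matched for 9 members, all but Odf1. The windows run 250 bases upstream of each start. The full cAMP response element TGACGTCA, read on both strands, lay in 0 of the 9 members, against 2.39% of 14168 windows, while its core TGACG was found in Odf2 and Tssk6 (23.5% of windows). TATAAA lay in 0 members (11.1%), GTTGCC in 0 (10.1%), and CCAAT in Odf2 and Tssk3 (35.0%). Forms of the element with another centre were looked for after the sequences had been seen. TGATGTCA lay in Akap3, Akap4 and Smcp, against 1.93% of windows, and TGACTTCA in Tssk1b and Tssk2, against 1.05%. The windows of Akap3 and Tssk1b each held 2 matches, 1 on each strand. The last 120 bases before the start of these members are shown because they share these letters, which stand in capitals.
Akap3: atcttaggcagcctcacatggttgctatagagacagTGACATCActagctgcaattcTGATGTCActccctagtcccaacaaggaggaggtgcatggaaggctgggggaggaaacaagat
Akap4: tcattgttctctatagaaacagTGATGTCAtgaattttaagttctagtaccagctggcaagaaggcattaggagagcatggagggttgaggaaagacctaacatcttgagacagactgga
Smcp: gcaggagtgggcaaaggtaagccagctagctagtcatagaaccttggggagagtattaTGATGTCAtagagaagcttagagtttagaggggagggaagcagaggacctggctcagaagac
Tssk1b: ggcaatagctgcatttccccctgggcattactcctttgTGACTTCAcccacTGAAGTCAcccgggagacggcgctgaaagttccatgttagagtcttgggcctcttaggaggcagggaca
Tssk2: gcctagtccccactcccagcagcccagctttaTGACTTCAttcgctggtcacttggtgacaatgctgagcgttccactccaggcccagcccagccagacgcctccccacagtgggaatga
They lie at chr4:161377930-161378049 (plus strand), chrX:18117550-18117669 (minus), chr2:180861565-180861684 (minus), chr11:96596640-96596759 (minus) and chr11:96592220-96592339 (minus). The first base of the match nearest to the start was 63 bases upstream in Akap3, 98 in Akap4, 62 in Smcp, 69 in Tssk1b and 88 in Tssk2. A match describes the letters of the window and is no evidence of binding. The Odf2 windows differed from these in base composition. Its 3 annotated starts had 20, 24 and 34 CG dinucleotides in 250 bases, against 12 in Tssk6, 0 to 5 in the other 7 members and a median of 12 over all windows. The last 120 bases before the third Odf2 start, at chr3:33559554-33559673 (plus), are shown with each CG in capitals.
Odf2: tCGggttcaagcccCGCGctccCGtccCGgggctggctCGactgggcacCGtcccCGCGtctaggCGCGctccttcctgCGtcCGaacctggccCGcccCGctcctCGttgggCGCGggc

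Odf2 was the outer dense fibre gene with the earlier onset. Its protein also sits on the appendages of the mother centriole in somatic cells. Odf2 stood at 3.02, 2.60 and 1.96 FPKM at 8.5 dpp and at 2.70 and 3.46 at 14.5 dpp. At 24.5 dpp it reached 57.3, 91.3 and 53.6 FPKM, above every younger testis, and this was already 9.03% of its 53.5 dpp mean. It then stood at 293, 504 and 339 FPKM at 30.5 dpp, 537, 551 and 749 at 36.5 dpp and 782, 684 and 774 at 53.5 dpp. The 36.5 and 53.5 dpp libraries overlapped.

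Odf1, the major small heat-shock-like protein of the fibres, started later and ended higher. It was at 1.42 and 1.34 FPKM and listed at 0 in the 8.5 dpp testes, at 1.77 and 4.18 FPKM at 14.5 dpp, and still at 2.60, 3.16 and 2.49 at 24.5 dpp. At 30.5 dpp the values were 157, 452 and 228 FPKM, and at 36.5 dpp 1330, 1171 and 986. From 24.5 dpp on, no library of one age reached into the range of the next. The 24.5 dpp level was 0.0531% of the 53.5 dpp mean and the 30.5 dpp level 5.39%.

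The fibrous sheath genes showed the same kind of split. Akap3, which is laid down as the sheath begins to form and binds the Akap4 protein, stood at 1.55, 1.40 and 1.04 FPKM at 8.5 dpp and 1.41 and 2.08 at 14.5 dpp. It reached 12.8, 15.4 and 10.0 FPKM at 24.5 dpp, 124, 275 and 183 at 30.5 dpp and 534, 518 and 491 at 36.5 dpp. Akap4, X-linked and the most abundant protein of the sheath, was at 0.282, 0.333 and 0.186 FPKM at 24.5 dpp, below both 14.5 dpp testes in 2 libraries and between them in the other. It then stood at 52.1, 157 and 89.5 FPKM at 30.5 dpp, 383, 366 and 342 at 36.5 dpp and 1116, 1093 and 880 at 53.5 dpp. At 24.5 dpp Akap3 was at 1.60% of its 53.5 dpp mean and Akap4 at 0.0259%.

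The kinase genes Tssk1b and Tssk2, neighbours on chromosome 11, had low values up to 24.5 dpp. Tssk1b stood there at 1.04, 1.07 and 0.941 FPKM and Tssk2 at 0.496, 0.594 and 0.545. At 30.5 dpp, Tssk1b was at 50.3, 108 and 77.4 FPKM and Tssk2 at 43.5, 113 and 65.5. Their order changed with age. The ratio of Tssk2 to Tssk1b within a library was 0.537 ± 0.0544 at 24.5 dpp, 0.917 ± 0.107 at 30.5 dpp, 1.16 ± 0.114 at 36.5 dpp and 1.52 ± 0.0913 at 53.5 dpp (SD, n = 3). Tssk4, at 0.342, 0.687 and 0.499 FPKM at 24.5 dpp, reached values overlapping the 53.5 dpp testes at 36.5 dpp. It had 19.2, 41.6 and 37.9 FPKM at 30.5 dpp, 64.3, 93.2 and 38.7 at 36.5 dpp and 64.0, 42.0 and 47.4 at 53.5 dpp, so all 30.5 dpp testes lay below the lowest of 53.5 dpp. Tssk4 was the member with the highest share of its 53.5 dpp mean at 30.5 dpp, at 64.3% (range 37.6 to 81.3).

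Tssk3 and Tssk6 stood above the other kinases in both testes of 14.5 dpp, while at 8.5 dpp Tssk3 overlapped Tssk1b. Tssk1b, Tssk2 and Tssk3 were all higher in both 14.5 dpp testes than at 8.5 dpp. Tssk1b went from 0.486, 0.396 and 0.264 FPKM to 0.569 and 1.33, and Tssk2 from 0.289, 0.297 and 0.104 to 0.326 and 0.967. Tssk4 was lower, at 0.112 and 0.220 FPKM against 0.236 to 0.314. Tssk3 stood at 0.373, 0.836 and 0.605 FPKM at 8.5 dpp, at 1.75 and 2.22 at 14.5 dpp and at 1.92, 2.27 and 3.20 at 24.5 dpp. It reached 17.6, 46.4 and 32.1 FPKM at 30.5 dpp, 117, 120 and 108 at 36.5 dpp and 285, 322 and 289 at 53.5 dpp. Tssk6, which is needed for chromatin condensation in mouse spermatids, ran the other way at first. Its values were 9.45, 9.60 and 9.21 FPKM at 8.5 dpp, 5.16 and 4.49 at 14.5 dpp and 2.14, 1.51 and 2.35 at 24.5 dpp, with no overlap between these ages. At 30.5 dpp it was at 3.80, 23.3 and 7.11 FPKM, so 2 of 3 libraries were still below the 8.5 dpp level. It reached 91.4, 96.4 and 68.2 FPKM at 36.5 dpp and 528, 531 and 486 at 53.5 dpp. Smcp, the last member, was at 1.43, 1.66 and 1.39 FPKM at 24.5 dpp, 158, 410 and 236 at 30.5 dpp and 1212, 1006 and 886 at 36.5 dpp.

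**Figure D1:**
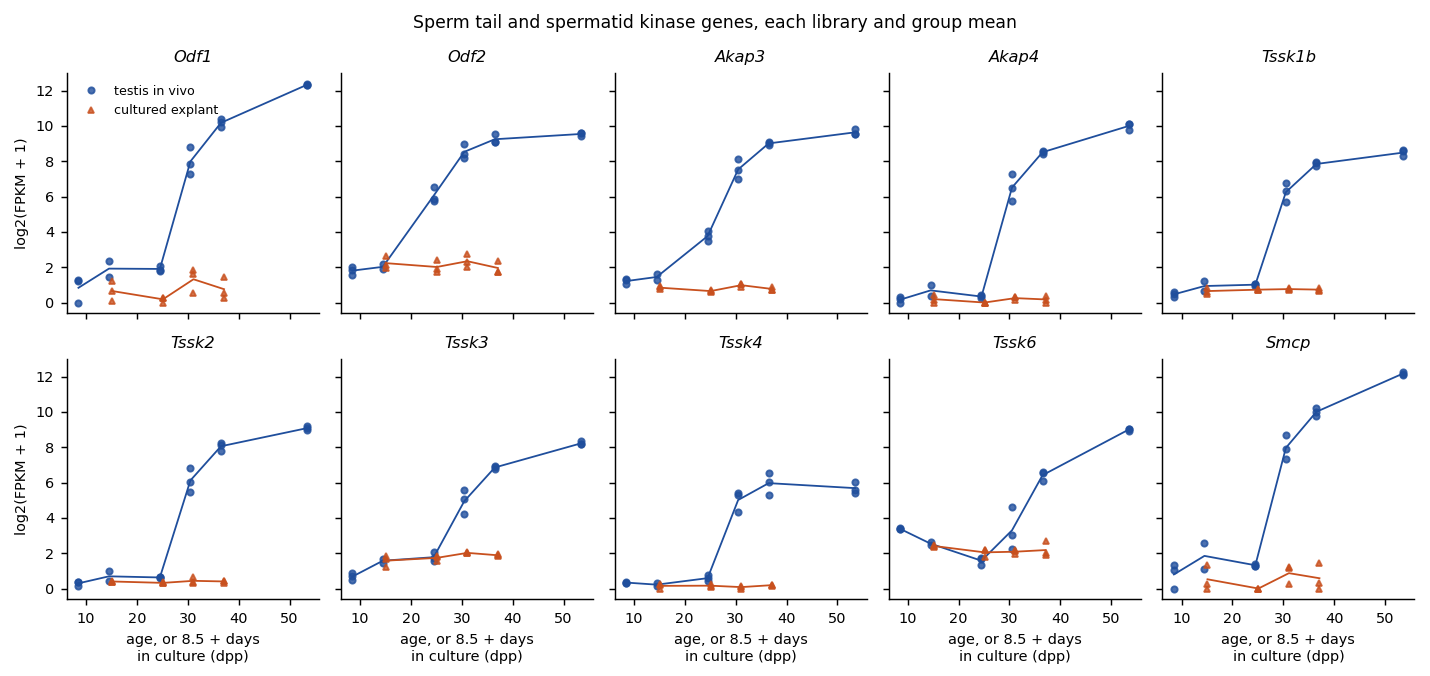
Expression of each gene as log2(FPKM + 1) on the vertical axis against age in dpp, for testes in vivo (blue circles) and explants (orange triangles, placed at 8.5 plus the days in culture and shifted slightly to the right), 1 point per library and a line through the group means. Blue lines climb from 24.5 dpp, Odf2 and Akap3 before it, while orange points of all 4 culture times stay at or below 5.60 FPKM.

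To place these changes, successive ages were compared by limma on log2(FPKM + 1). Calls needed an adjusted p (Benjamini-Hochberg, all genes tested) no higher than 0.05 and medians at least 2 times apart in FPKM. All changes below are on this log2 scale, which understates those of low genes. From 8.5 to 14.5 dpp, 15.7% of the tested genes were called, 8.83% higher and 6.89% lower. Of the 9 members tested, 1 was called, Tssk3, which rose by 0.90 (SE 0.16, adjusted p = 0.0103). The level of Tssk6 differed by -0.84 (SE 0.10, adjusted p = 0.00502), but its ratio of medians did not reach 2. With 2 testes at 14.5 dpp the count was unstable, since 5 members were called without replicate 1 of that age. Median ratio scaling between libraries turned the split of all calls from 994 higher and 775 lower to 725 and 1078.

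From 14.5 to 24.5 dpp, 35.6% of the tested genes were called, 14.6% higher and 21.1% lower. Odf2 rose by 4.03 (SE 0.26, adjusted p = 0.000320) and Akap3 by 2.31 (SE 0.22, adjusted p = 0.000992). Tssk6 fell by 0.97 (SE 0.18, adjusted p = 0.00644). The other 6 members tested did not pass, and the median over the 9 tested was -0.02, against -0.18 over all genes tested. The same count of 3 calls was found without any 1 of the 5 libraries.

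All 10 members rose between 24.5 and 30.5 dpp, where 39% of the tested genes were called, 13.5% higher and 25.5% lower. With 24.5 dpp medians under 0.5 FPKM, Akap4 and Tssk4 were open only to a higher call. Smcp rose most on this scale, by 6.64 (SE 0.32, adjusted p = 3.04e-05), followed by Akap4 with 6.17 (SE 0.36) and Odf1 with 6.09 (SE 0.35). Tssk2 rose by 5.49 (SE 0.31), Tssk1b by 5.24 (SE 0.26), Tssk4 by 4.42 (SE 0.28) and Akap3 by 3.77 (SE 0.30). The changes were smaller for Tssk3 at 3.17 (SE 0.33), Odf2 at 2.48 (SE 0.27) and Tssk6 at 1.72 (SE 0.53, adjusted p = 0.0233). The median over the members was 4.83, against -0.39 over all 11492 genes tested. Median ratio scaling moved the latter to -0.01 and turned the split of all calls from 1553 higher and 2926 lower to 2268 and 666, while the median over the members stood at 5.16.

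The 3 testes of 30.5 dpp were not alike. Replicate 2 had the highest value of every member and replicate 1 the lowest. The 10 genes took 0.297% of the summed FPKM in the lowest of these libraries and 0.681% in the highest. The summed level of Tnp1, Tnp2, Prm1 and Prm2, markers of elongating spermatids, also differed, from 109 to 842 FPKM over the same libraries. The part of the spermatid content in this spread was not tested.

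From 30.5 to 36.5 dpp, 7.54% of the tested genes were called, 6.33% higher and 1.2% lower, and 8 of the 10 members rose. The changes ran from 3.12 for Tssk6 (SE 0.54) and 2.19 for Odf1 (SE 0.36) to 1.60 for Tssk1b (SE 0.26) and 1.47 for Akap3 (SE 0.27), each at an adjusted p of 0.0170. Odf2 differed by 0.71 (SE 0.23, adjusted p = 0.0549) and Tssk4 by 0.96 (SE 0.39, adjusted p = 0.0944). These 8 calls depended on the number of libraries. None of the 10 was called without replicate 3 of 30.5 dpp or without any 1 of the 36.5 dpp testes. The median over the members was 1.92, against -0.22 over all genes tested. Median ratio scaling gave 931 higher and 34 lower calls over all genes, against 711 and 135.

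From 36.5 to 53.5 dpp, when 7.86% of the tested genes were called, 2.88% higher and 4.98% lower, 5 members rose. These were Tssk6 by 2.59 (SE 0.14), Odf1 by 2.17 (SE 0.12), Smcp by 2.16 (SE 0.13), Akap4 by 1.49 (SE 0.12) and Tssk3 by 1.37 (SE 0.10), with adjusted p from 0.000387 to 0.000944. After quantile normalization 3 members were called, since Odf1 and Smcp no longer met both criteria. The differences of Tssk2 at 1.03 (SE 0.15, adjusted p = 0.00492), Tssk1b at 0.64 (SE 0.12, adjusted p = 0.00884) and Akap3 at 0.63 (SE 0.11, adjusted p = 0.00690) did not reach a ratio of medians of 2. Odf2 stood at 0.30 (SE 0.15, adjusted p = 0.129) and Tssk4 at -0.28 (SE 0.31, adjusted p = 0.466), and the sign of each depended on the scaling. Over all genes, the calls were 318 higher and 549 lower, 433 and 94 after quantile normalization, and 637 and 88 after median ratio scaling. The median over all genes was -0.30, against 0.01 after median ratio scaling.

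**Figure D2:**
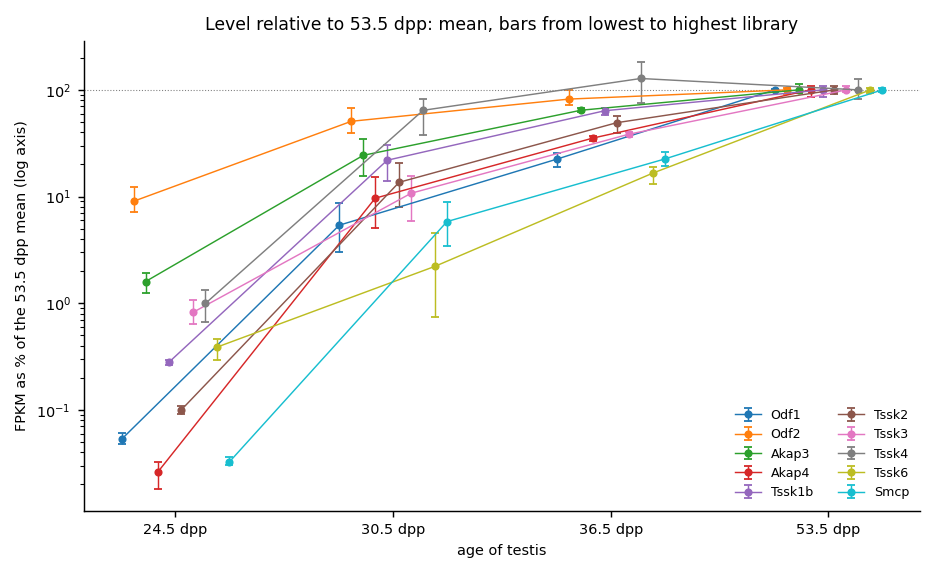
FPKM of each gene at the 4 ages from 24.5 to 53.5 dpp as a percentage of its own 53.5 dpp mean, on a log axis, with means joined by lines and bars from the lowest to the highest library (n = 3). At 24.5 dpp the genes span from 0.0259% (Akap4) to 9.03% (Odf2), and at 36.5 dpp from 16.6% (Tssk6) to 128% (Tssk4).

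The members therefore differed in how far each had come at a given age. At 30.5 dpp, Odf2 and Tssk4 stood at 50.7% and 64.3% of their own 53.5 dpp means. Akap3 was at 24.3% and Tssk1b at 21.9%. Lower shares were found for Tssk2 (13.6%), Tssk3 (10.7%), Akap4 (9.65%), Smcp (5.83%), Odf1 (5.39%) and Tssk6 (2.22%). At 36.5 dpp, the share was 22.4% for Odf1, 22.5% for Smcp and 16.6% for Tssk6, against 82.0% for Odf2. Ratios within a library, which do not depend on its scaling, showed the same order. Akap4 to Akap3 was 0.0207 ± 0.00188 at 24.5 dpp, 0.492 ± 0.0746 at 30.5 dpp, 0.707 ± 0.0103 at 36.5 dpp (SD, n = 3) and between 1.17 and 1.51 at 53.5 dpp. Odf1 to Odf2 went from 0.0421 ± 0.00655 through 0.701 ± 0.184 and 1.97 ± 0.596 to 6.96 ± 0.505 over the same ages. In each of these pairs no library of one age overlapped with the next. In both testes of 14.5 dpp, before this span, Akap4 to Akap3 was 0.221 and 0.470 and Odf1 to Odf2 was 0.656 and 1.21. Both ratios were thus higher at 14.5 than at 24.5 dpp, with each of these genes at a low value. Smcp and Odf1 kept near one ratio from 30.5 dpp, at 0.984 ± 0.0688, 0.890 ± 0.0269 and 0.888 ± 0.0288. The Tssk6 to Tssk3 ratio passed through a low at 30.5 dpp (0.313 ± 0.165), between 17.3 ± 7.17 at 8.5 dpp and 1.73 ± 0.108 at 53.5 dpp. These values are descriptions with no test.

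**Figure D3:**
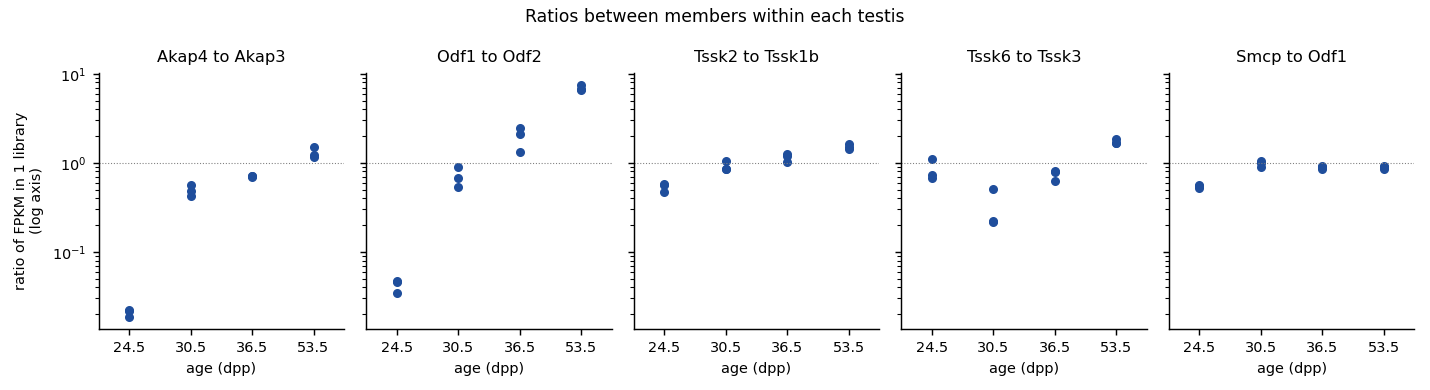
Ratio of FPKM between pairs of members within each testis, 1 point per library (n = 3 per age), on a log axis with a dotted line at a ratio of 1. From 24.5 dpp, the first age drawn, Akap4 to Akap3, Odf1 to Odf2 and Tssk2 to Tssk1b climb and cross 1. Smcp to Odf1 stays between 0.859 and 1.04 from 30.5 dpp.

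Genes named as parts or partners of these structures and kinases were followed as lists, and some of them, such as Ppp1cc, also serve other cells. Over all genes tested, 14.6% were called higher and 21.1% lower from 14.5 to 24.5 dpp, 13.5% and 25.5% from 24.5 to 30.5 dpp, and 6.33% and 1.2% from 30.5 to 36.5 dpp. Of the fibrous sheath partners, 5 of 12 tested rose from 14.5 to 24.5 dpp, 6 of 14 from 24.5 to 30.5 dpp and 4 of 14 from 30.5 to 36.5 dpp, while 1, 1 and 0 fell. Among them, Ropn1l, which docks on the same protein kinase A anchors, was listed at 0 at 14.5 dpp and stood between 197 and 382 FPKM at 24.5 dpp, as Ldhc, the lactate dehydrogenase of the germ line, did between 187 and 368. Pgk2, a glycolytic kinase of the germ line, ran from 31.5 to 57.7 FPKM at 24.5 dpp and from 975 to 1073 at 53.5 dpp. Of the outer dense fibre partners, 5 of 7 tested rose from 14.5 to 24.5 dpp and 8 of 11 from 24.5 to 30.5 dpp, with 0 lower in either step, as in the TSSK and mitochondrial lists. Tcp11 was between 69.6 and 169 FPKM at 24.5 dpp, Odf4 between 45.5 and 89.9, and Odf3l1 still at or below 0.114. The TSSK partner list counted 3 of 6 higher at 24.5 dpp and 4 of 6 at 30.5 dpp. Tsks, a substrate of these kinases, was between 1.92 and 2.85 FPKM at 24.5 dpp and between 408 and 453 at 53.5 dpp. Of the mitochondrial sheath list, 5 of 5 rose at 24.5 dpp and 5 of 8 at 30.5 dpp. Gpx4, which also forms part of the capsule, went from between 143 and 171 FPKM at 24.5 dpp to between 1028 and 1280 at 53.5 dpp. The mother centriole list, named for the somatic site of Odf2, counted 2 of 6 higher and 1 lower at 24.5 dpp, and 1 of 6 higher, near the 13.5% of all genes, and 2 lower at 30.5 dpp.

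In explants, the same members stayed near their values in young testes. Tissue cultured for a given time was compared with testes of the same age, counted as 8.5 dpp plus the days in culture. These comparisons ask whether the genes come on in culture when they do in vivo. All 10 members together took between 0.00276% and 0.00597% of the summed FPKM in the 12 cultured libraries. A tissue holds several cell types, so a lower value can come from fewer germ cells or from less RNA per cell, and these cannot be told apart here.

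At D6, when 7.94% of the tested genes were called against 14.5 dpp, 5.57% higher and 2.37% lower, 1 of 9 members was called. Akap3 stood at 0.691, 0.808 and 0.887 FPKM and differed by -0.60 (SE 0.15, adjusted p = 0.0447). This call was lost without replicate 2 of 14.5 dpp or without any 1 of the D6 libraries, and with no filter on low values or with median ratio scaling.

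At D16, 43.6% of the tested genes were called against 24.5 dpp, 25.3% higher and 18.3% lower, and 5 of 8 members were lower. Odf2, which had come on in vivo by this age, was at 2.32, 4.39 and 2.67 FPKM in the explants and differed by -4.04 (SE 0.26, adjusted p = 2.48e-05). Akap3 was at 0.553, 0.631 and 0.523 FPKM, a difference of -3.11 (SE 0.15, adjusted p = 1.01e-05). Odf1 was listed at 0 and at 0.207 and 0.211 FPKM (-1.72, SE 0.12, adjusted p = 3.40e-05), and Smcp was listed at 0 in all 3 libraries, against 1.39 to 1.66 FPKM in vivo (-1.32, SE 0.09, adjusted p = 2.61e-05). A fitted change towards a value listed at 0 depends on the added constant of 1. Tssk2 differed by -0.31 (SE 0.08, adjusted p = 0.0122). Odf1, Smcp and Tssk2 reached the 0.5 FPKM needed for testing only at 24.5 dpp, so only a lower call was open to them. Tssk3 stood at 1.98, 2.42 and 2.63 FPKM, within the range of 24.5 dpp. Tssk1b was lower in every library (0.607 to 0.703 FPKM, against 0.941 to 1.07) but not called. Tssk6 went the other way, at 2.43, 3.47 and 3.62 FPKM against 1.51 to 2.35 in vivo, and was not called. Adjusted p was at most 0.05 for 7 of the 8 members, so Tssk1b and Tssk6 missed the call on the ratio of medians. Their medians were 0.666 and 3.47 FPKM at D16, against 1.04 and 2.14 at 24.5 dpp. Akap4, listed at 0 in all D16 libraries, and Tssk4 had medians under 0.5 FPKM in both groups and were not tested.

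At D22, the explants had Odf1 at 0.442, 2.56 and 2.02 FPKM, Odf2 at 2.99, 5.60 and 3.93 and Akap3 at 0.837, 1.07 and 1.03. Against 30.5 dpp, 9 of the 10 members were lower, where 65% of the tested genes were called, 42.1% higher and 22.9% lower. With D22 medians under 0.5 FPKM, Akap4, Tssk2 and Tssk4 were open only to a lower call. Median ratio scaling turned the split of all calls from 5104 higher and 2773 lower to 3902 and 3537. The member differences ran from -7.09 for Smcp (SE 0.40) to -2.93 for Tssk3 (SE 0.31), with adjusted p from 9.55e-07 to 7.99e-05. Tssk6 was at 2.93, 3.29 and 3.53 FPKM, below each 30.5 dpp testis but at a difference of -1.21 (SE 0.53, adjusted p = 0.0676) that did not pass.

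At D28, no member had a value above 5.36 FPKM. Odf1 stood at 1.74, 0.202 and 0.464 FPKM, against 986 to 1330 at 36.5 dpp, and Smcp at 1.68 and 0.252 and listed at 0. Akap4 was at 0.301 and 0.107 FPKM and listed at 0 in replicate 2, the library in which Smcp was also at 0. Odf2 was at 2.34, 2.37 and 4.20 FPKM, Akap3 at 0.853, 0.621 and 0.655, and Tssk4 at 0.116, 0.165 and 0.145. All 10 members were lower than at 36.5 dpp, where 70.3% of the tested genes were called, 46.7% higher and 23.6% lower. With D28 medians under 0.5 FPKM, Odf1, Akap4, Tssk2, Tssk4 and Smcp were open only to a lower call. The difference was -9.42 for Odf1 (SE 0.30) and Smcp (SE 0.35), -8.33 for Akap4 (SE 0.13), -8.24 for Akap3 (SE 0.10) and -7.29 for Odf2 (SE 0.21). Among the kinases it was -7.65 for Tssk2 (SE 0.15), -7.11 for Tssk1b (SE 0.10), -5.77 for Tssk4 (SE 0.29), -4.97 for Tssk3 (SE 0.10) and -4.24 for Tssk6 (SE 0.24), with adjusted p from 6.25e-09 to 1.92e-06. The median over the members was -7.47, against 0.64 over all genes tested. After median ratio scaling these were -8.06 and 0.11, and the split of all calls went from 5701 higher and 2884 lower to 4123 and 3956.

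**Figure D4:**
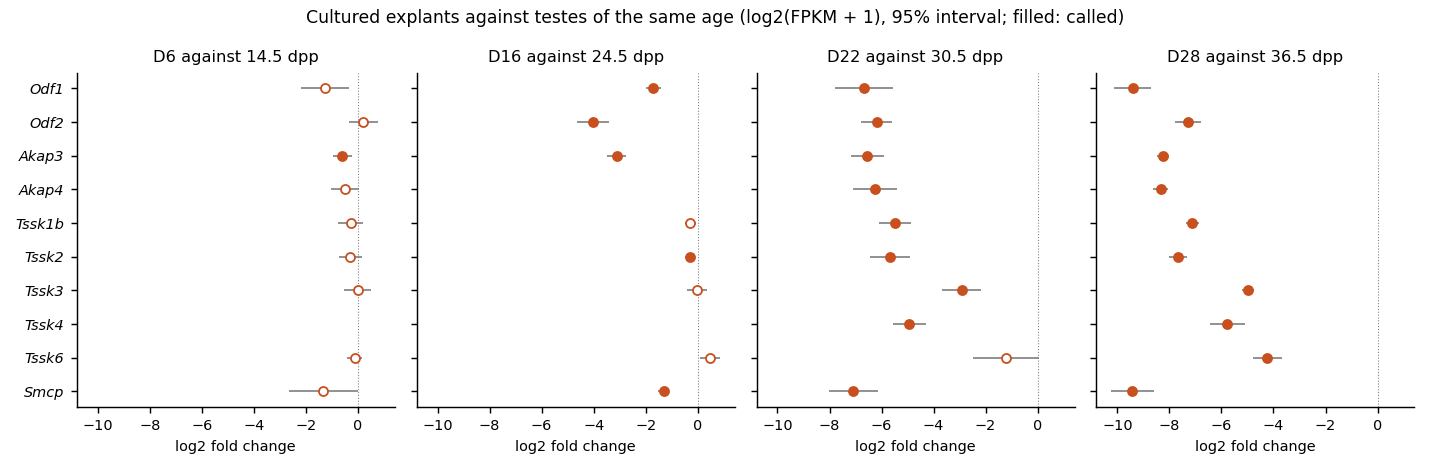
Difference in log2(FPKM + 1) between explants and testes of the same age for each member, with 95% intervals from limma and filled points where the gene was called. At D28 all points lie between -9.42 and -4.24, and at D22 and D28 Tssk3 and Tssk6 are the closest to 0. Members with no point were too low to be tested.

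Culture times were compared from D6 to D16 and from D16 to D28, and no member tested was called in either. From D6 to D16, 0 of 6 members tested were called by limma, with 2 at an unadjusted p under 0.05 (Akap3 and Tssk6), where 3.3% of all tested genes were called, 1.45% higher and 1.85% lower. From D16 to D28, limma called 0 of 5, with 0 at an unadjusted p under 0.05, and 0.215% of all tested genes, 0.125% higher and 0.0895% lower. That split was 14 higher and 10 lower, or 26 and 10 after median ratio scaling. The change from D6 to D28 was also set against the change from 14.5 to 36.5 dpp in 1 model. It was lower in culture for 10 of 10 members, while 57.6% of the tested genes were called, 19.2% lower and 38.4% higher, or 3379 lower and 3010 higher after median ratio scaling, against 2395 and 4794. The comparisons with 36.5 dpp share its libraries.

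The explants were also compared with the 14.5 dpp testes, whose 2 libraries enter each of these fits and the comparison with D6. The F test over D16, D22 and D28 was used for the call. Against 14.5 dpp, 11.9% of the tested genes were called at D16 (6.56% higher, 5.35% lower), 12.9% at D22 (7.35% and 5.51%) and 13.6% at D28 (7.64% and 6%). Lower calls were made for Odf1, Akap3 and Akap4 at D16, for Akap4 at D22 and for Odf1, Akap3 and Akap4 at D28, of 9 members tested. None of the 9 was called higher. Akap4 and Tssk2 reached the 0.5 FPKM needed for testing only at 14.5 dpp, so only a lower call was open to them. The medians of Akap4 were 0.646 FPKM at 14.5 dpp and 0, 0.227 and 0.107 at D16, D22 and D28. At D28, Akap3 differed by -0.68 (SE 0.12, adjusted p = 0.00194 for the contrast), Odf1 by -1.16 (SE 0.44, adjusted p = 0.0578) and Akap4 by -0.51 (SE 0.17, adjusted p = 0.0350). Without replicate 2 of 14.5 dpp, 1 member was called at D16, 0 at D22 and 1 at D28. That testis had 4.18 FPKM of Odf1 and 0.979 of Akap4, against 1.77 and 0.312 in the other. Without replicate 1 in turn, the counts at D22 and D28 were 4 and 5. The count at D16 was also 1 without any 1 of the D16 libraries, replicate 2 or 3 of D22 or replicate 3 of D28, and so was the count at D28. At D22 it was 0 without any 1 of the D16 or D22 libraries or replicate 3 of D28, and 2 without replicate 1 of D28. Tssk3 stood above both 14.5 dpp testes in every D22 and D28 library (2.98 to 3.13 and 2.53 to 2.88 FPKM, against 1.75 and 2.22). Its contrasts were 0.44 (SE 0.11, adjusted p = 0.0115) and 0.31 (SE 0.11, adjusted p = 0.0471), under a ratio of medians of 2.

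D28 tissues were compared with testes of 8.5 dpp, the age at which explants were cut. Over all genes tested, 23.6% were called, 13.2% higher and 10.5% lower. Of 7 members tested, Tssk3 was higher by 1.21 (SE 0.13, adjusted p = 0.000312), while Tssk6 (-1.20, SE 0.21, adjusted p = 0.00277) and Akap3 (-0.44, SE 0.12, adjusted p = 0.0177) were lower. Tssk1b was also higher in every D28 library (0.596 to 0.742 FPKM, against 0.264 to 0.486), but it was not called. Tssk6 stood at 5.36, 2.97 and 2.67 FPKM, all below the 9.21 to 9.60 of the 8.5 dpp testes, and Tssk3 at 2.53, 2.67 and 2.88, all above the 0.373 to 0.836. In both genes the culture followed the direction seen in vivo from 8.5 to 24.5 dpp. The ratio of Tssk6 to Tssk3 was 17.3 ± 7.17 at 8.5 dpp and 1.39 ± 0.643 at D28, against 0.839 ± 0.241 at 24.5 dpp (SD, n = 3).

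Both kinase genes overlap a longer gene on the other strand in the RefSeq annotation, as Tssk1b and Tssk2 do. Bsdc1, across Tssk3, was at 24.8 to 57.4 FPKM over all libraries, and Gatad2a, across Tssk6, at 34.6 to 71.8. Over the 17 libraries of 8.5 dpp, 14.5 dpp and culture, Tssk3 followed Bsdc1 with a Pearson correlation of 0.720, and Tssk6 ran against Gatad2a with -0.855. Tssk1b and Tssk2 lie across Ess2, at 6.57 to 18.3 FPKM, with correlations of -0.03 and 0.01. The libraries kept the strand, but the methods of the study name StringTie with default settings for the quantification and mention no strand option. The part of reads from the other strand in the low values of Tssk3 and Tssk6 was not tested. At 53.5 dpp, when Tssk3 had 298 FPKM and Tssk6 515, the mean of Bsdc1 was 28.7 and that of Gatad2a 37.7.

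Low values of other members in young and cultured libraries moved with markers of elongating spermatids. The summed FPKM of Tnp1, Tnp2, Prm1 and Prm2 was 24.9 in replicate 2 of 14.5 dpp and at most 4.74 in the others, of which 7 were listed at 0 for all 4 genes. Across the 17 libraries, Smcp had a Pearson correlation with this sum of 0.925 (Spearman 0.790) and Odf1 of 0.816 (0.778). Without the 2 libraries with the highest sums, these were 0.717 and 0.804 over 15 libraries. For Akap4 the coefficient was 0.920 (Spearman 0.809) and 0.608 without them, and for Akap3 0.757 (0.726) and 0.675. Tssk1b and Tssk2 had 0.740 and 0.864, which came down to -0.00478 and 0.0778, so their relation rested on those libraries. Odf2, Tssk3, Tssk4 and Tssk6 had coefficients between -0.00416 and 0.323. In replicate 2 of 14.5 dpp, Smcp stood at 0.109% of its 53.5 dpp mean, Akap4 at 0.0951% and Odf1 at 0.0807%. In its organotypic cultures the study observed no germ cell later than spermatocyte I. The source of these low values, whether cells of the tissue or not, was not tested.

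**Figure D5:**
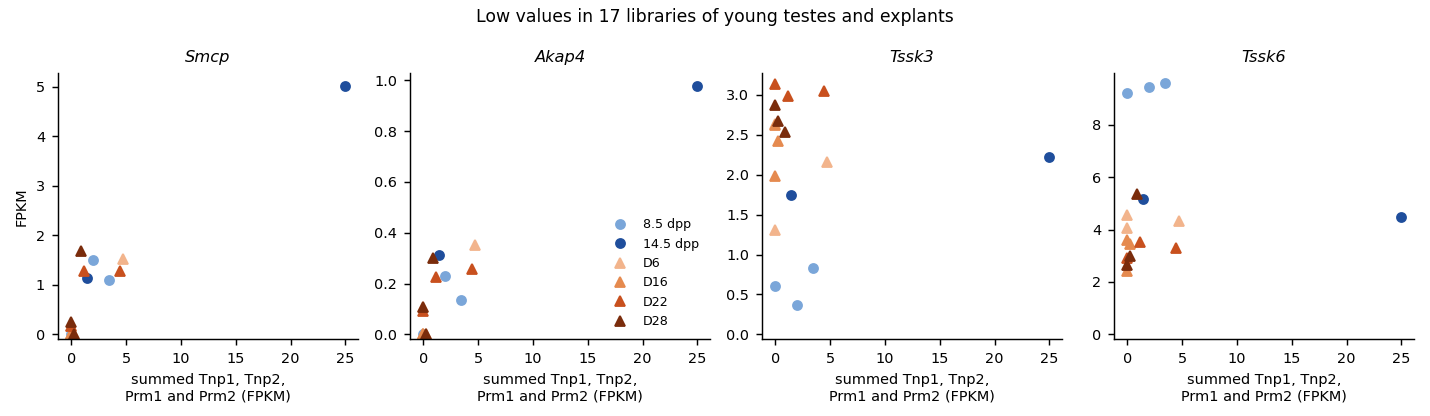
FPKM of Smcp, Akap4, Tssk3 and Tssk6 against the summed FPKM of Tnp1, Tnp2, Prm1 and Prm2 in the 17 libraries of 8.5 dpp, 14.5 dpp (circles) and culture (triangles), 1 point per library. Smcp and Akap4 are highest in the 14.5 dpp testis with a marker sum of 24.9 FPKM, whereas Tssk3 and Tssk6 do not follow the markers, and Tssk6 is highest in the 8.5 dpp testes.

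The partner lists were also followed in culture. At D28 against 36.5 dpp, 11 of 14 fibrous sheath partners were lower and 1 was higher, with a median of -5.16, against 23.6% lower, 46.7% higher and a median of 0.64 over all genes tested. All 11 outer dense fibre partners tested were lower (median -6.18), as were 7 of 7 mitochondrial sheath genes (-5.79) and 4 of 6 TSSK partners (-6.15). Of the mother centriole list, 3 of 6 were lower and 2 higher. Ropn1l was listed at 0 or at up to 1.39 FPKM at D28, Pgk2 was between 0.0479 and 0.449, Tcp11 between 0.0358 and 0.321 and Tsks between 0.388 and 0.701. Genes that other cells of the testis also use were measured in the explants. Ppp1cc, a phosphatase of many tissues, stood between 208 and 264 FPKM at D28 and between 309 and 337 at 36.5 dpp. Gpx4 was between 104 and 179 FPKM at D28, below the 621 to 775 of 36.5 dpp and overlapping the 66.0 to 130 of 8.5 dpp.

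The tissue labels were checked against marker genes. Markers of spermatocytes summed to between 1448 and 1941 FPKM at 24.5 dpp, when those of elongating spermatids were at 1.21 to 2.16, and the latter reached 14671 to 22515 at 53.5 dpp. In the explants of all 4 times, spermatocyte markers summed to between 24.8 and 45.9 FPKM, against 17.4 to 18.9 at 8.5 dpp and 33.6 to 77.5 at 14.5 dpp. Round spermatid markers summed to between 7.32 and 9.74 FPKM in the explants. In vivo they were at 12.7 to 13.8 at 8.5 dpp, 11.8 to 12.4 at 14.5 dpp and 494 to 514 at 36.5 dpp. Sertoli cell markers summed to between 3058 and 3834 FPKM at D28, against 419 to 550 at 36.5 dpp. In younger testes they were at 627 to 703 at 8.5 dpp, 849 to 1444 at 14.5 dpp and 1499 to 2292 at 24.5 dpp. The 4 epididymis markers summed to at most 0.406 FPKM in vivo and to between 0.239 and 0.667 at D28, all of it Adam7 in the explants, while Crisp1 and Lcn5 were listed at 0 in every library. Of the motile cilia markers, Foxj1, which is also used in spermatids, stood between 91.7 and 120 FPKM at 53.5 dpp and between 0.276 and 0.526 at D28. Tppp3 ran the other way, between 0.522 and 0.793 FPKM at 53.5 dpp and between 5.45 and 14.6 at D28, after 43.0 to 66.7 at 8.5 dpp. The part of cell composition in the differences above was not tested.

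Last, the genes whose pattern was most like that of each member were read from the Pearson correlation of log2(FPKM + 1) over 29 libraries, among 8502 genes. The libraries share ages, so the coefficients are high throughout. Odf1 and Smcp shared their leading pair, Gsg1 (0.997 and 0.998) and Oaz3 (0.997 and 0.996). Oaz3, an antizyme of spermatids, was at 0.392 FPKM at 8.5 dpp, 1.35 at 24.5 dpp, 161 at 30.5 dpp and 4656 at 53.5 dpp (means). Akap4 and Tssk2 shared H1f7, a linker histone of spermatids, with 0.999 for each. Akap3 was followed by Deup1 and Klhl10 (both 0.998) and Odf2 by Mospd4 (0.997) and Oscp1 (0.996). For Tssk1b, Spata21 led with 0.999, for Tssk4 4930433I11Rikl with 0.995 and for Tssk3 Lrrc8b with 0.996. Tssk6 had the least similar neighbours. Its leading gene was Gpd2 (0.986), with means of 2.51 FPKM at 8.5 dpp, 0.468 at 24.5 dpp and 40.3 at 53.5 dpp. Between members, the coefficients ran from 0.727 (Odf2 and Tssk6) to 0.999 over 45 pairs.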

How the data were processed

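Per the labels and the methods of the study, the authors aligned single reads of stranded poly(A) libraries to rn6 with STAR 2.5.2a after bcl2fastq 2.17.1.14, quantified RefSeq transcripts with StringTie at default settings, and deposited FPKM values per gene, scaled by transcript length and library size. The values are not counts, so depth is unknown. Steps in low values gave relative depths of 0.819 to 1.49, and 12520 to 13563 genes were above 0 per library. Of 30 libraries 29 were used. One 14.5 dpp library, labelled an outlier, is listed at 0 for all genes and was left out. Titles write dpc where the age labels give postnatal days, and the latter were used.

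Values were tested with limma 3.58.1 in R 4.3.3 on log2(FPKM + 1), over genes whose median was at least 0.5 FPKM in a group compared. Python 3.11.15 (numpy 2.4.6, pandas 2.3.3, matplotlib 3.10.9) did the rest. Only the groups compared entered each fit. A gene that met this filter in only 1 of the groups compared could be called only in the direction of that group. The change from D6 to D28 against that from 14.5 to 36.5 dpp was an interaction term. The fit was tested on simulated data with 200 shifted genes, by adjusted p alone. At a shift of 1 (log2), a mean of 143.9 were called with 3 against 3 libraries and 52.6 with 2 against 3. At a shift of 2 these were 194.3 and 192. Changes near 1 are thus often missed in comparisons of 2 with 3 libraries, as for 14.5 dpp. In vivo libraries came from different testes and cultures were pools, so for cultures p-values measure the spread between pools. All 10 members are described, and like genes were the 3 with the highest correlation among genes with a mean of at least 10 FPKM in a group. The members, the gene lists and the tests were chosen with earlier results of these data known. The alternatives were another pseudocount (0.1), filter, scaling (quantile, median ratio), prior variance, fold rule, all groups in 1 fit, a replicate block and leaving out each library.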

Additional observations from a re-analysis of the deposited data

Results flagged for a closer look

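The change from D6 to D28 in culture was set against the change from 14.5 to 36.5 dpp in vivo, and the interaction term in limma passed for all 10 genes. They are given here because the same span of time gave different changes in the 2 settings. On the log2(FPKM + 1) scale the difference was -8.15 for Odf1, -8.10 for Smcp, -7.84 for Akap4, -7.63 for Akap3 and -7.50 for Odf2. Among the kinases it was -7.36 for Tssk2, -6.83 for Tssk1b, -5.71 for Tssk4, -4.97 for Tssk3 and -4.11 for Tssk6. Adjusted p ran from 1.20e-10 for Akap3 to 3.20e-06 for Smcp. All 10 stayed called in every fit without 1 library. Over all genes tested, 19.2% were called lower.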

How the results depend on the processing

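From 24.5 dpp on, and for explants against testes of 24.5 to 36.5 dpp, the counts of members called moved by more than 1.5 times only from 36.5 to 53.5 dpp with quantile normalization (3, against 5) and from 30.5 to 36.5 dpp without 1 library (0 to 8). Comparisons with the 2 testes of 14.5 dpp were less stable. Against 8.5 dpp, the count of 1 became 2 with quantile normalization, median ratio scaling or all 10 groups in the fit, 0 with the fold taken on the log2 scale, and 1 to 5 without 1 library. For D6, the count of 1 became 0 with no filter, median ratio scaling or the fold on the log2 scale, 3 with all groups, and 0 to 1 without 1 library. For D16 and D28, the count of 3 became 1 with no filter, median ratio scaling or the fold on the log2 scale, and ran from 1 to 4 and from 1 to 5 without 1 library. For D22, the count of 1 became 2 with a pseudocount of 0.1 and 0 with no filter, a filter at 1 FPKM, median ratio scaling or the fold on the log2 scale, and 0 to 4 without 1 library. The cause was not tested.

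The samples were treated as unpaired. Deviations of same-numbered libraries had correlations from -0.151 to 0.226. Libraries with different numbers were not set against them, so whether the numbers pair the samples was not tested. With a replicate block, the counts against 14.5 dpp were 1 at D16, 0 at D22 and 1 at D28. From 36.5 to 53.5 dpp, Odf2 stood at -0.062 with quantile normalization and Tssk4 at 0.10 with median ratio scaling, and Tssk4 ran from -0.61 to 0.012 without 1 library (36.5 dpp replicate 3 and replicate 2). Neither gene was called in the main comparison. Read counts were not used here, so precision at low values is unknown, and values near 0 limit the comparisons between young testes and explants.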
